A study of Homo sapiens with 6 samples.

Results

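A set of 9 genes of the plasminogen activator system and the serpin family was followed in MDA-MB-231 cells. It held the activators PLAU and PLAT, the urokinase receptor PLAUR, serpins SERPINE2, SERPINB2, SERPINB7 and SERPINB8, and annexin tetramer genes S100A10 and ANXA2. They were chosen by gene name, with earlier results of these data known. Each name matched 1 row of the deposited table, so 9 of its 58735 genes are described. All 9 had enough counts to be tested, among 15242 genes tested in all. RNA had been sequenced from 2 groups of MDA-MB-231, an established triple-negative breast cancer cell line labelled as wild type throughout. The 3 parent libraries came from the line itself. The 3 ADRr libraries came from derivatives selected by exposing parent cells to rising doses of Adriamycin (doxorubicin, a DNA-damaging anthracycline) and then isolated by limiting dilution as single clones, so the group may represent 1 clone. The methods of the study give a serum-supplemented medium for MDA-MB-231 and name no other base medium for the ADRr cells. Cells that survived selection were grown in medium with high doses of the drug. Whether drug was present at harvest was not given in the sources used here. The series record speaks of several time points, which the sample labels do not name. Nothing says that the libraries of a group came from separate cultures, so the p-values measure the spread between libraries, which may be technical.

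Urokinase (PLAU) and tissue plasminogen activator (PLAT) are serine proteases that cut plasminogen to plasmin, a broad protease that degrades fibrin and matrix proteins. Urokinase acts mostly at the cell surface, where PLAUR, a receptor held by a lipid anchor, binds it. Many serpins are suicide inhibitors that trap proteases, not only these activators. The tetramer of annexin A2 and S100A10 is a docking site for plasminogen on the cell membrane. A high level of urokinase is a long-known marker of poor outcome in breast cancer.

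The activators, their receptor and 3 of the 4 serpins were higher in ADRr cells, while SERPINB7 and the tetramer genes S100A10 and ANXA2 were lower. A gene was called changed at an adjusted p of at most 0.05 in edgeR's quasi-likelihood test with Benjamini-Hochberg adjustment over all tested genes and a fold change of at least 1.2. By this rule 6 of the 9 genes rose and 3 fell, against a background in which 58.8% of all tested genes were called (29.2% higher and 29.6% lower). In all 9 the groups did not overlap, as in 34.5% of tested genes with ADRr above and 34.7% with ADRr below. PLAU, PLAT, SERPINE2, SERPINB2 and SERPINB8, 5 of the 9, were called higher with a log2 fold change of 1 or more, against 9.74% of tested genes, while 18.8% were called with that size in either direction. The median log2 fold change was 1.3 over the 9 genes and -0.006 over all genes tested. Because the 9 genes were chosen with earlier results of these data known, these shares and medians are description only.

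The libraries held 15983985 to 18272314 counts each, with normalization factors of 0.987 to 1.01, and 3 counts corresponded to 0.164 to 0.188 CPM (counts scaled to library depth). Vimentin (VIM), a mesenchymal marker, had a mean FPKM (fragments scaled to gene length and library depth) of 97.7 in parent cells and 66.5 in ADRr cells, and CD44, a surface marker of this line, 83.7 and 146 FPKM. The hormone receptor genes ESR1 and PGR had at most 1 count in any library. Markers expected to be low in this line were detected: ERBB2 had 11.4 FPKM in parent and 4.83 in ADRr cells. CDH1 had 2.34 and 1.12 FPKM, and EPCAM 4.88 and 10.5 FPKM. ERBB2 and CDH1 were called lower and EPCAM higher. Of 10 leukocyte markers, 5 had at most 3 counts in every library and TYROBP and MS4A1 had 0. Their summed level was 59.4 to 65.3 CPM in parent and 94.3 to 98.3 in ADRr libraries, of which LAPTM5, at 853 to 945 and 1444 to 1574 counts, made up most, and ITGAX went from at most 2 counts in a parent library to 28 to 59 in an ADRr library. The summed level of 8 stromal and endothelial markers was 93.2 to 96.8 CPM in parent and 28.9 to 32.6 in ADRr libraries, PDGFRB accounted for most of the parent level, and the fibroblast marker DCN had 0 counts in every library. The part of these markers in the results was not tested. In bulk RNA, a change in the share of cells that express a gene and a change in RNA per cell cannot be told apart.

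Promoter sequence was read for the members from RefSeq (GRCh38.p14), which matched 8 of the 9 genes. PLAT was not among them. Each window is the 250 bases before the RefSeq transcription start, which can lie inside the longer gene interval used for counting. It was searched on both strands for TGANTCA (the AP-1 motif), TTCNNNGAA (STAT) and the NF-kB motif, the motifs of factors known to act on stress and cytokine response genes. TGANTCA was found in 4 of the 8 windows, those of PLAUR, SERPINB2, SERPINB8 and ANXA2, and in 6.57% of 35116 promoters of the same length. These 4 windows are shown because they hold the motif, and 3 of the genes rose while ANXA2 fell. Capitals mark every motif match, and the sequences run 5′ to 3′ on the strand of the gene.
PLAUR: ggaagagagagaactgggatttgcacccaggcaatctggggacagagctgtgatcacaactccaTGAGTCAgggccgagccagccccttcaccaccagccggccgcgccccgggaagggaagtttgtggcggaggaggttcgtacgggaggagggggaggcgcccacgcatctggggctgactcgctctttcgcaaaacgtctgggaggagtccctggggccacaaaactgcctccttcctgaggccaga
SERPINB2: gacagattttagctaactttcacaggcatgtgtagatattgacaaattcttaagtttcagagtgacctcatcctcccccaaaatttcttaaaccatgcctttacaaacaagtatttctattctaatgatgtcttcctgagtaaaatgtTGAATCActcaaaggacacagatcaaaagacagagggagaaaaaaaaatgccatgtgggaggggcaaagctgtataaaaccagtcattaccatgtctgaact
SERPINB8: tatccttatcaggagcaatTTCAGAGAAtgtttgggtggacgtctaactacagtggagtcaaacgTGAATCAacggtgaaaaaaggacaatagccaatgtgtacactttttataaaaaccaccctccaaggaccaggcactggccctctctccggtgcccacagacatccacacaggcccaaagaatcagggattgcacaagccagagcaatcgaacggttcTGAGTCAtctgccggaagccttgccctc
ANXA2: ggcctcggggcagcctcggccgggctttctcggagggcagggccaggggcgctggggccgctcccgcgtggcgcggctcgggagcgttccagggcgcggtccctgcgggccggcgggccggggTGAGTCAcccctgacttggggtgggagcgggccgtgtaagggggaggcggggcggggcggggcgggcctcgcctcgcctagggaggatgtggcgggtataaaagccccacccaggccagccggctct
The PLAUR window is chr19:43670170-43670419 on the minus strand, with TGAGTCA at 186 to 180 bases before the start. The SERPINB2 window is chr18:63887455-63887704 on the plus strand and carries TGAATCA at 102 to 96 bases. SERPINB8, at chr18:63969831-63970080 on the plus strand, has TGAATCA at 185 to 179 bases, TGAGTCA at 28 to 22 bases and the STAT match TTCAGAGAA at 231 to 223 bases. The ANXA2 window, chr15:60397987-60398236 on the minus strand, has TGAGTCA at 127 to 121 bases. In SERPINB7 a STAT match (TTCCCTGAA) lay 46 to 38 bases before the start and an NF-kB match (GGAAAGCCCC, read on the opposite strand) 207 to 198 bases before it. STAT matches were present in 6.57% and NF-kB matches in 5.67% of all promoters. The windows of PLAU, SERPINE2 and S100A10 held none of the 3 motifs. A match of letters does not show that a factor binds there.

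Per length of all annotated exons of a gene, S100A10, ANXA2 and PLAU were the most abundant of the 9 in both groups, and their order changed. That length was 1543 bases for S100A10, 2950 for PLAU and 8824 for ANXA2, and need not be the length of the transcript expressed. The order between genes depends on it. By normalized counts ANXA2 was highest of the 9 in both groups, at 29809 in parent and 22313 in ADRr cells. In parent cells S100A10 stood at 265 ± 5.17 FPKM (mean ± SD, n = 3), followed by ANXA2 at 193 ± 2.63 and PLAU at 141 ± 3.13. In ADRr cells PLAU came first at 361 ± 2.16 FPKM, above S100A10 at 148 ± 3.28 and ANXA2 at 145 ± 0.888, whose libraries overlapped. Below them in both groups came PLAT, at 23.7 ± 0.989 and 97.0 ± 2.61 FPKM, and PLAUR, at 13.4 ± 1.29 and 26.4 ± 1.21 FPKM. The 4 serpins were the least abundant. In parent cells SERPINE2 (1.69 ± 0.192 FPKM) and SERPINB8 (1.47 ± 0.218) overlapped, and SERPINB7 (0.892 ± 0.106) and SERPINB2 (0.0345 ± 0.0312) were below both. In ADRr cells SERPINB8 reached 6.01 ± 0.194 FPKM, SERPINE2 4.19 ± 0.0134, SERPINB2 1.34 ± 0.31 and SERPINB7 0.498 ± 0.113, with no overlap between neighbours.

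**Figure D1:**
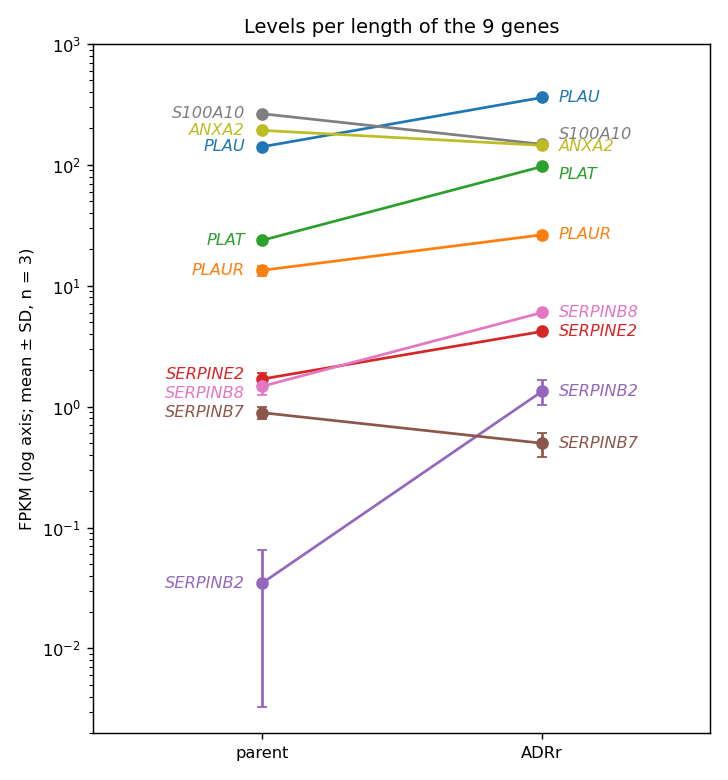
Mean FPKM of the 9 genes in parent and ADRr cells on a log axis, with bars for the SD over 3 libraries. PLAU lay below S100A10 and ANXA2 in parent cells and above both in ADRr cells, and SERPINB2, lowest in parent cells, passed SERPINB7.

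PLAU, which encodes urokinase (ENSG00000122861, chr10:73909177-73917497, plus strand, GRCh38), had 7126, 7257 and 7486 normalized counts in the parent libraries and 18506, 18740 and 18427 in the ADRr libraries. Every ADRr library was above every parent library, and the spread within each group was a small part of the gap. The mean rose from 7290 ± 182 to 18558 ± 163 (n = 3 each), a log2 fold change of 1.35 (SE 0.045, edgeR adjusted p = 3.6e-17) or 2.55-fold. The change was larger in absolute size than that of 89.0% of tested genes. C10orf55, on the opposite strand, overlaps 31.1% of the PLAU exon bases and had 16 to 30 counts in a library. The strand setting of the counting was not given in the sources used here, and how the overlap affects the PLAU counts was not tested.

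PLAT, the tissue plasminogen activator gene (ENSG00000104368, chr8:42175233-42207724, minus strand), had 2757, 2615 and 2844 normalized counts in parent cells and 10922, 11157 and 11487 in ADRr cells. The groups stood far apart, with the lowest ADRr library well above the highest parent library. PLAT rose from 2739 ± 116 to 11189 ± 284, a log2 fold change of 2.03 (SE 0.051, edgeR adjusted p = 2.8e-19) or 4.08-fold, larger in size than in 95.8% of tested genes.

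PLAUR (ENSG00000011422, chr19:43646095-43670547, minus strand), the receptor for urokinase, had 1003, 972 and 1164 normalized counts in parent libraries and 2096, 1952 and 2112 in ADRr libraries. Again no library crossed between the groups, although the third parent library was higher than the other two. The mean rose from 1047 ± 103 to 2053 ± 88.2, a log2 fold change of 0.97 (SE 0.068, edgeR adjusted p = 2.1e-11) or 1.96-fold. The fold changes of these 3 genes thus ranked in the order PLAT, PLAU and PLAUR.

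**Figure D2:**
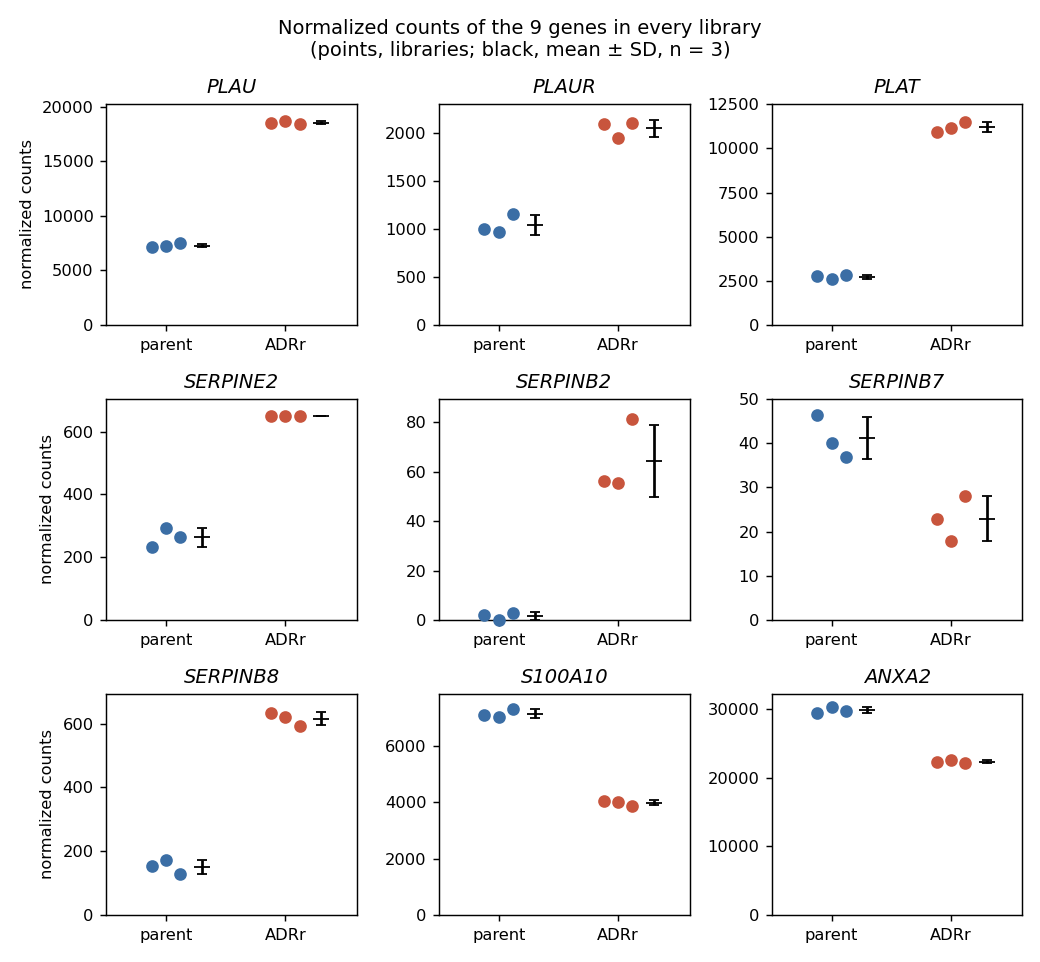
Normalized counts of each of the 9 genes in each library, one panel per gene with its own linear axis; points are single libraries, coloured by group, and black bars give the mean ± SD (n = 3). The parent and ADRr points do not overlap in any panel.

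Among the serpins, SERPINE2 (protease nexin 1, ENSG00000135919, chr2:223975112-224039319, minus strand) inhibits thrombin, urokinase and tissue plasminogen activator outside the cell. It had 234, 294 and 263 normalized counts in parent libraries and 649, 651 and 651 in ADRr libraries. The ADRr libraries were almost identical and the parent libraries more spread. SERPINE2 rose from 264 ± 30.3 to 650 ± 1.12, a log2 fold change of 1.3 (SE 0.092, edgeR adjusted p = 2.5e-11) or 2.47-fold.

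SERPINB2 (plasminogen activator inhibitor 2, ENSG00000197632, chr18:63871692-63903890, plus strand) was nearly silent in parent cells. The raw counts were 2, 0 and 3 in the parent libraries and 59, 53 and 87 in the ADRr libraries. All parent libraries were at or below 3 counts, and the third ADRr library was higher than the other two. Summed over libraries, 5 counts stood against 199, a depth-corrected ratio of 37.8 (95% Clopper-Pearson interval 15.9 to 118, counting error only). The edgeR log2 fold change was 5.14 (SE 0.47, adjusted p = 2.4e-09). That fitted size depends on how so few counts are handled, and limma on log2(FPKM + 1) gave 1.17. SERPINB10, on the same strand, overlaps 19.9% of the exon bases of SERPINB2 and had 0 counts in every library.

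SERPINB8 (ENSG00000166401, chr18:63969925-64019779, plus strand), an intracellular serpin known to inhibit furin, had 152, 173 and 129 normalized counts in parent libraries and 633, 620 and 592 in ADRr libraries. The groups were well separated. The mean rose from 151 ± 22.3 to 615 ± 20.8, a log2 fold change of 2.03 (SE 0.11, edgeR adjusted p = 1.1e-13) or 4.07-fold, a size close to that of PLAT. HMSD, which overlaps 6.31% of its exon bases on the same strand, and the antisense gene AC009802.1, which overlaps 4.38%, had at most 149 and 6 counts in a library.

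SERPINB7 (megsin, ENSG00000166396, chr18:63752935-63805376, plus strand), first known from mesangial cells, was the exception among the 4. Its raw counts were 45, 37 and 38 in parent libraries and 24, 17 and 30 in ADRr libraries, or 46.3, 40.0 and 37.0 against 22.8, 17.8 and 28 after normalization. The groups did not overlap, but the gap between them was close to the spread within them. The mean fell from 41.1 ± 4.74 to 22.9 ± 5.11, a log2 fold change of -0.83 (SE 0.29, edgeR adjusted p = 0.016). The call was lost in DESeq2 (SERPINB7 log2 fold change -0.84, adjusted p = 0.064), without the first parent library (-0.74, edgeR adjusted p = 0.06) and without the second ADRr library (-0.68, edgeR adjusted p = 0.068).

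The 3 clade B serpins among the members lie in 1 cluster on chromosome 18, 66316 bases apart from SERPINB7 to SERPINB2 and 66035 bases apart from SERPINB2 to SERPINB8. The cluster spans chr18:63476761-64019779 (543 kb) and holds 14 genes of the table, 10 of them SERPINB genes. The other 7 SERPINB genes were close to silent: SERPINB3, SERPINB4, SERPINB10, SERPINB11, SERPINB12 and SERPINB13 had 0 counts in every library, and SERPINB5 (maspin) had at most 3 counts. AC036176.3 and ATP5MC1P6 also had 0 counts throughout. HMSD, between SERPINB10 and SERPINB8, rose from 55.4 ± 11.8 to 129 ± 14.1 normalized counts (log2 fold change 1.22, SE 0.19, edgeR adjusted p = 4.3e-06), and shares 3.64% of the 150-base windows of SERPINB8. Neighbours outside the cluster moved in both directions, with more of them called higher than lower. Of all tested genes 29.2% were called higher and 29.6% lower. On the left, ZCCHC2 (1.56), KDSR (1.15), VPS4B (0.78) and BCL2 (0.31) were called higher and PHLPP1 (-1.15) lower on the log2 scale. On the right, TMX3 (0.99) and SOCS6 (0.77) were called higher and DSEL (-1.01) lower, while RTTN (-0.12) and LINC01910 (-0.21) were not called. Whether the serpin genes moved with a wider region of the chromosome was not tested.

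**Figure D3:**
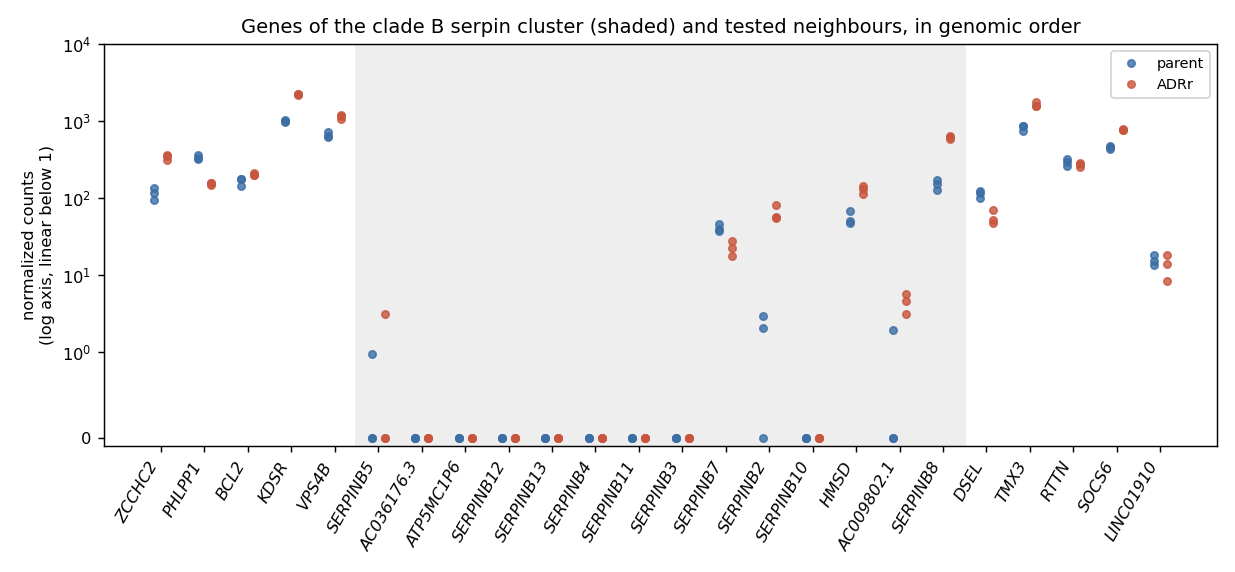
Normalized counts (log axis, linear below 1) of the 14 genes of the clade B serpin cluster, shaded, and of the nearest tested genes on either side in genomic order, with 1 point per library coloured by group. SERPINB7 is lower and SERPINB2, HMSD and SERPINB8 are higher in ADRr libraries, while most other genes of the cluster lie at 0.

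S100A10 and ANXA2 encode the light and heavy chains of the annexin A2 tetramer. S100A10 (ENSG00000197747, chr1:151982915-151994390, minus strand) had 7119, 7029 and 7321 normalized counts in parent libraries and 4060, 4029 and 3881 in ADRr libraries. The groups were far apart relative to their spread. The mean fell from 7157 ± 150 to 3990 ± 95.8, a log2 fold change of -0.84 (SE 0.048, edgeR adjusted p = 5.2e-13). ANXA2 (ENSG00000182718, chr15:60347134-60402883, minus strand) had 29474, 30299 and 29654 normalized counts in parent libraries and 22254, 22535 and 22149 in ADRr libraries. Its fall was smaller but also without overlap, from 29809 ± 434 to 22313 ± 199, a log2 fold change of -0.42 (SE 0.041, edgeR adjusted p = 6.8e-09). The size of the ANXA2 change was below the median of all tested genes, larger than in 47.0% of them. ANXA2P2, a near-identical copy, shares 13.2% of its 150-base windows with ANXA2, and reads could be split between them. It had 1633 ± 43.8 and 1228 ± 48.2 normalized counts in parent and ADRr cells, with a log2 fold change of -0.41 (edgeR adjusted p = 2.5e-06).

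Ratios of FPKM within a library were used to ask whether paired members moved by the same amount. PLAU to PLAUR was 10.7, 11.3 and 9.72 in parent libraries and 13.3, 14.5 and 13.2 in ADRr libraries, a log2 difference of 0.37. PLAU to PLAT was 5.80, 6.23 and 5.91 against 3.80, 3.77 and 3.60, a log2 difference of -0.68. S100A10 to ANXA2 was 1.38, 1.33 and 1.41 against 1.04, 1.02 and 1.00, a log2 difference of -0.43. In these 3 ratios the groups did not overlap. With 3 libraries against 3, the exact two-sided permutation test cannot go below p = 0.1, which was the value in each (0.133 after Benjamini-Hochberg adjustment over the 4 ratios tested). PLAU to SERPINE2 was 91.9, 74.3 and 85.8 in parent libraries and 85.9, 86.8 and 85.3 in ADRr libraries. The groups overlapped, the log2 difference was 0.04 and the exact permutation p was 0.8, and its sign turned without the second parent library (-0.05).

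**Figure D4:**
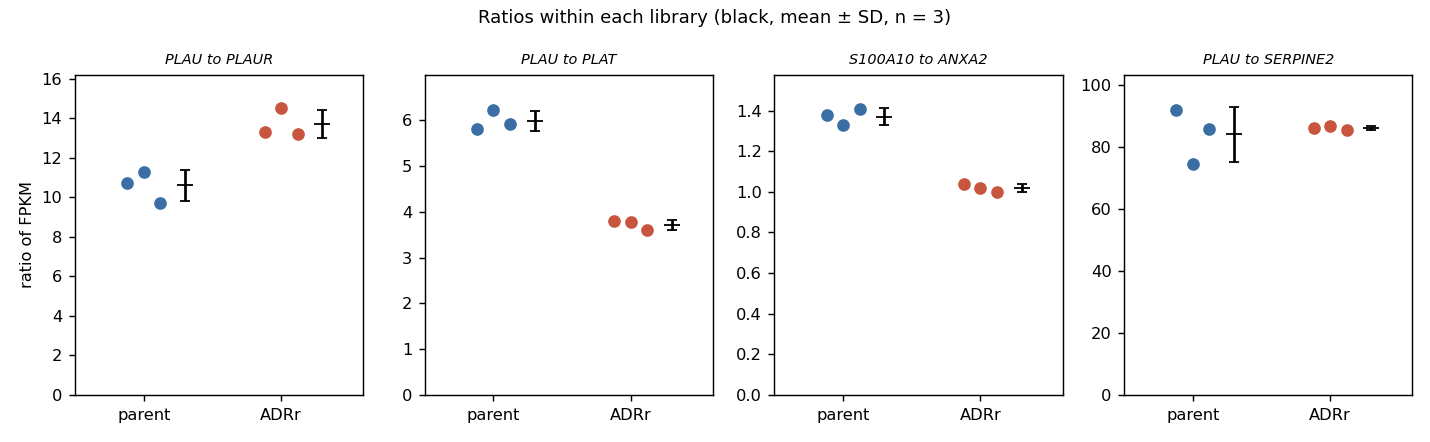
Ratio of FPKM of 2 genes in each library, with points for single libraries and black bars for the mean ± SD of a group (n = 3). PLAU to PLAUR was higher in ADRr libraries, PLAU to PLAT and S100A10 to ANXA2 were lower, and PLAU to SERPINE2 overlapped.

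Around the members, 107 genes of 7 related lists were examined, of which 53 could be tested. Of these, 19 rose, 15 fell and 19 were not called, so that 64.2% were called against 58.8% of all tested genes, and their median log2 fold change was -0.08. The lists thus moved in both directions, at a rate near the background. Plasminogen itself (PLG) had 0 counts in every library and was not tested.

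Of the 5 tested serpins of other clades 2 rose and 2 fell. SERPINA1 (alpha-1 antitrypsin) rose by 0.51 on the log2 scale (edgeR adjusted p = 7.9e-08), and SERPINH1, a collagen chaperone that inhibits no protease, fell by 0.72 (edgeR adjusted p = 4.4e-11). SERPINF1 fell by 0.88 (edgeR adjusted p = 0.037) from 28.6 ± 4.87 normalized counts. That call was lost in DESeq2 (SERPINF1 log2 fold change -0.89, adjusted p = 0.13), without the first (-0.93, edgeR adjusted p = 0.062) or the third (-0.73, edgeR adjusted p = 0.14) parent library and without the first (-0.81, edgeR adjusted p = 0.11) or the second (-0.63, edgeR adjusted p = 0.17) ADRr library. In clade B, besides the members, 3 genes were tested: SERPINB1, an inhibitor of neutrophil proteases, rose by 0.36 (edgeR adjusted p = 9.2e-06), and SERPINB6 (-0.24) and SERPINB9 (0.10) were not called. Without the first parent library the SERPINB6 log2 fold change was -0.26, just past the fold threshold (edgeR adjusted p = 0.0018).

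Of the plasminogen receptors and non-serpin regulators, 3 of 5 tested genes rose and none fell. TFPI2, a Kunitz-type inhibitor of plasmin, went from 4980 ± 71.0 to 20818 ± 259 normalized counts and so rose by 2.06 on the log2 scale (edgeR adjusted p = 3.0e-20). THBD (thrombomodulin) rose by 1.51 (edgeR adjusted p = 9.1e-17). ENO1, a glycolytic enzyme that also binds plasminogen at the cell surface, rose from 312 to 507 FPKM, a log2 fold change of 0.70 (edgeR adjusted p = 1.7e-12). PLGRKT (0.22) and TFPI (-0.23), the inhibitor of tissue factor, were not called. The TFPI groups overlapped, and its value rested on single parent libraries. The TFPI log2 fold change was -0.28 without the first parent library (edgeR adjusted p = 0.024), -0.10 without the second (edgeR adjusted p = 0.22) and -0.31 without the third (edgeR adjusted p = 7.1e-04), so that it was called without the first or the third.

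The binding and clearance partners of urokinase and its receptor were divided, with 4 of 14 tested genes higher and 6 lower. ITGA5, the fibronectin receptor subunit, rose by 1.2 on the log2 scale (edgeR adjusted p = 3.4e-15) and ITGA3 by 0.63, from 130 to 201 FPKM. FPR1, a formyl peptide receptor, fell by 2.53 (edgeR adjusted p = 2.1e-09), ITGB5 by 1.13 (edgeR adjusted p = 1.7e-14) and ITGB1 by 0.48, from 223 to 160 FPKM. LRP1, the endocytic receptor that clears complexes of activators with serpins, was picked out after its values were seen. It had 2130 ± 161 normalized counts in parent and 993 ± 24.6 in ADRr cells, and its log2 fold change was -1.10 (edgeR adjusted p = 8.6e-13).

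A list of zymogen-activating proteases and related growth factor genes had 6 tested genes, of which CTSL and HGFAC were called. CTSL, a lysosomal cysteine protease, rose by 0.44 (edgeR adjusted p = 1.8e-07). HGFAC, a protease that activates the precursor of hepatocyte growth factor, fell by 1.95 (edgeR adjusted p = 0.0055) from 22.8 ± 14.4 normalized counts, and without the first parent library the HGFAC log2 fold change was -1.34 (edgeR adjusted p = 0.097).

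**Figure D5:**
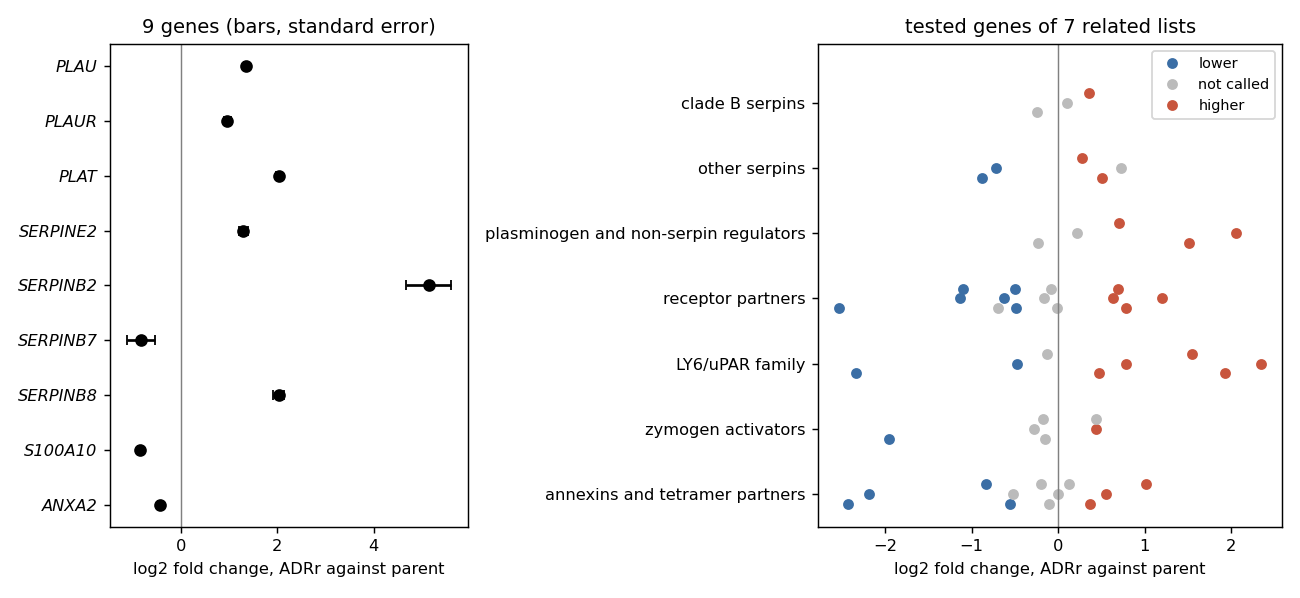
Log2 fold change of ADRr against parent cells for the 9 genes (left, bars show the standard error) and for the 53 tested genes of the 7 related lists (right, one point per gene, coloured by call). Among the 9 genes 6 lie above 0 and 3 below, and the related lists fall on both sides.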

How the data were processed

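The files hold RNA sequencing of 3 parent and 3 ADRr libraries. Per the methods of the study, poly(A) RNA went into CORALL libraries, which were read from both ends for 150 bases. The labels' processing notes list fastp, HISAT2 2.0.5, featureCounts 1.5.0-p3 and DESeq2 1.20.0, with GRCh38 (hg38). The labels and the methods give different amounts of input RNA. The strand setting is not given in the sources used here. The authors deposited raw gene counts in one table and FPKM, scaled to gene length and library depth, in another. Columns were assigned to samples by their names. All 58735 gene identifiers were found in GENCODE 29, 58724 with the same start and end.

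From the counts, genes kept by filterByExpr were normalized by TMM and compared with edgeR 4.0.16 in R 4.3.3 (glmQLFit, glmQLFTest, Benjamini-Hochberg). Normalized counts are counts divided by the effective library size and multiplied by its mean over libraries. The design had no covariate, and FPKM served for levels between genes and for ratios. The fit was tested before use on simulated counts in which 200 of 15242 genes were changed. It recovered 81.0% of them, and 3.57% of its calls were false. In the real data 58.8% of tested genes were called, so the simulation does not cover changes that widespread. Related genes were named as the 2 largest increases and the 2 largest decreases called in each list, and genes with a mean of at least 100 FPKM. Some genes that this rule names are not reported here. The members and lists were chosen with earlier results of these data known. The alternatives were DESeq2 1.42.0, limma 3.58.1 on log2(FPKM + 1) and log2(FPKM + 0.1), other scalings, filters and thresholds, a replicate block and leaving out each library. Intervals cover counting error only. Libraries of 1 group differed by more than sampling noise, so none was counted as a duplicate.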

Additional observations from a re-analysis of the deposited data

How the results depend on the processing

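The directions of the 9 genes held in every alternative that tested the gene. At the same fold threshold the calls held too except for SERPINB7. Its log2 fold change was -0.84 in DESeq2 (adjusted p = 0.064), and leaving out a library gave -1.01 to -0.68, with the call lost without the first parent or the second ADRr library. SERPINB2 ranged from 1.17 to 5.77 and was not tested where every library needed 10 counts. With a threshold of 1.2 on the log2 scale in place of a fold of 1.2, 5 of the 9 genes were called higher and 0 lower, and of the related lists 6 genes were higher and 5 lower. The ratio of PLAU to SERPINE2 ranged from -0.05 to 0.11 (log2 difference) when a library was left out. Of 776 comparisons over the 53 related genes, 755 kept direction and call, 8 lost the call, 5 gained one and 8 changed sign, all near 0: MRC2 was at 0.00 without the third parent library (-0.13 to 0.00 over all left-out libraries), ANXA3 at -0.01 without the second parent and -0.02 without the third ADRr library (-0.02 to 0.04), and IGF2R at 0.01 without the first parent or second ADRr library (-0.03 to 0.01), at 0.02 with library size alone and at 0.00 with at least 10 counts or protein-coding genes alone. The cause was not tested. Replicate numbers do not pair the samples: deviations of same-numbered libraries correlated at 0.00735, -0.0213 and -0.0457, and not every library correlated best with its own number. With the replicate block 6 members were called higher and 3 lower, SERPINB7 was at -0.84 (edgeR adjusted p = 0.022), and the related lists again gave 19 and 15. Depth limits SERPINB2 and SERPINB7 most.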

Other observations

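In the LY6/uPAR family, to which PLAUR belongs by its three-finger fold, 5 of 8 other tested genes rose and 2 fell, and all but CD59, LYPD6 and LY6E had group means below 100 normalized counts. Of the others called higher, LYNX1 (0.78) lost the call in DESeq2 (LYNX1 log2 fold change 0.78, adjusted p = 0.071) and without the first ADRr library (0.67, edgeR adjusted p = 0.079). CD177, a neutrophil surface protein, rose from 17.4 ± 6.32 to 89.0 ± 24.8 normalized counts, or by 2.35 on the log2 scale (edgeR adjusted p = 2.8e-07). LYPD1 rose by 1.93 (edgeR adjusted p = 0.0019) from 5.83 ± 4.76 normalized counts. LY6K fell by 2.33 (edgeR adjusted p = 3.7e-06) and LYPD6 by 0.47 (edgeR adjusted p = 1.4e-04). CD59, a complement inhibitor, rose by 0.47 (edgeR adjusted p = 7.4e-08), and LY6E, at 107 and 97.6 FPKM, was not called (-0.13).

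Of 12 other tested annexins and tetramer partners 3 rose and 4 fell. ANXA8 and ANXA8L1, near-identical copies between which reads may be split, both went down: ANXA8 fell by 2.19 (edgeR adjusted p = 1.9e-16) and ANXA8L1 fell by 2.43 (edgeR adjusted p = 4.0e-15). ANXA4 rose by 1.02 (edgeR adjusted p = 9.7e-12) and ANXA7 by 0.56 (edgeR adjusted p = 6.0e-09). ANXA5, at 178 and 155 FPKM, was not called (-0.20). AHNAK, a giant scaffold protein that binds the tetramer, was picked out after its values were seen and fell by 0.56 (edgeR adjusted p = 3.4e-10). DLC1, listed with AHNAK among the tetramer partners, went the other way and rose by 0.37 (edgeR adjusted p = 3.0e-06).

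The genes whose FPKM over the 6 libraries lay closest to PLAU, by the root mean square difference of log2(FPKM + 0.1) among tested protein-coding genes, were CSF2 (0.153), H1F0 (0.361) and TFPI2 (0.362). CSF2, the cytokine GM-CSF, had 125 ± 12.2 and 377 ± 11.2 FPKM. Closest to PLAUR were BCAR3 (0.087), NFKBIB (0.092) and MID1IP1 (0.093), and BCAR3 had 13.2 ± 0.702 and 27.8 ± 0.382 FPKM.

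Chosen after their values were seen, and with no test, the levels of the 2 activators were also summed. PLAU and PLAT together reached 165 ± 3.72 FPKM in parent and 458 ± 2.75 FPKM in ADRr cells.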
